A study of Mus musculus with 18 samples.

Results

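Peaks on exons of long noncoding RNA (lncRNA) genes were collected from the 18 peak lists of a study of RNA bound by MDA5 in mouse liver. A peak is a stretch of the genome, on 1 strand, where the reads of a library piled up. For RNase-digested RNA the pile was measured against libraries of undigested RNA. The paper's methods name no control for the undigested libraries themselves. A peak belonged here when it overlapped, on its own strand, an exon of a gene that GENCODE M21 calls lincRNA, antisense, processed_transcript, sense_intronic, sense_overlapping, bidirectional_promoter_lncRNA or macro_lncRNA, and no exon of a protein_coding gene. Peaks of *Malat1*, *Neat1*, *Kcnq1ot1*, *Airn*, *Gas5*, *Snhg1*, *H19* and *Meg3* were left out. The rule uses positions only and gave 496 of 82353 peaks, in 123 of the 10152 annotated lncRNA genes. These were 45 lincRNA, 38 antisense, 28 processed_transcript, 8 bidirectional_promoter_lncRNA and 4 sense_intronic genes. Here a lncRNA gene is what M21 types as one. Some processed_transcript members carry the names of protein-coding genes (*C4a*, *Cct6a*, *Ifi30*, *Ptpmt1*, *Tmem134* and *Zswim6*), and whether they are noncoding was not examined.

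Livers of mice aged 8 to 9 days came from editing-deficient (Adar-/-; Mavs-/-) animals and from Mavs-/- animals, 3 replicates each. Both groups lack MAVS, which passes on the MDA5 signal, and only the editing-deficient group also lacks ADAR1, the enzyme that turns adenosine into inosine in double-stranded RNA. The Mavs-/- libraries are titled wild-type but carry the genotype Mavs-/- in their labels, and they stand here as the editing-competent group. Total RNA was refolded and either left undigested (input), digested with a mix of RNase A and RNase T1 (RNase-only), or digested after incubation with recombinant MDA5 without its CARD domains (MDA5-protected). Whole liver and refolded, purified RNA were used, so the cell type and the compartment of an RNA are not known, and for a whole tissue fewer cells of a type and less RNA per cell cannot be told apart. All 7 hepatocyte markers looked up (such as *Alb* and *Ttr*) had exonic input peaks in all 6 input libraries, and 4 of 6 erythroid and 3 of 4 macrophage markers did too, while none of 5 stellate and endothelial markers did and 4 of the 5 had one in some input library.

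Long noncoding RNAs are transcripts without a long open reading frame. Some act in the nucleus on chromatin, some are the precursors from which small nucleolar RNAs or microRNAs are cut, and many are short-lived antisense or divergent transcripts that start near the promoter of a coding gene. MDA5 is a cytoplasmic sensor that forms filaments along double-stranded RNA, and editing by ADAR1 disrupts the base pairs on which these filaments form. RNase A cleaves single-stranded RNA after pyrimidines and RNase T1 after guanosines.

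The sequences below are those of some of the peaks that the comparison of fractions and genotypes turned on, because the fractions differed in the bases their lncRNA peaks held. They are written 5′ to 3′ on the strand of the peak, in the GRCm38 build, from GENCODE M21 transcripts and RefSeq promoters. Capitals mark the bases covered in every library of the fraction that had the peak, and lower case marks bases covered in only some of them. The first 6 were MDA5-protected, the next pair RNase-only and the last input. Only stretches of at most 300 bp with every base known were printed. Genes left out for unknown bases included *Mir99ahg*, *Mettl5os* and *Gm26852*. Known bases favour promoters, so the printed stretches do too.
C030014I23Rik, lincRNA, chr9:44478848-44478938, + strand, peaks in 6 of 6 MDA5-protected and 6 of 6 RNase-only libraries: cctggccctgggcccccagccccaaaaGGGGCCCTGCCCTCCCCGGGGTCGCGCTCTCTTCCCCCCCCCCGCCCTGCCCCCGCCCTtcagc
Gm42984, antisense gene, chr5:44226622-44226703, + strand, peaks in 6 of 6 MDA5-protected libraries: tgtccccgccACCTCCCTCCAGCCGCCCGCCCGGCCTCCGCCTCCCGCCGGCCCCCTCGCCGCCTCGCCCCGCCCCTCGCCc
Gm12963, antisense gene, chr4:130047633-130047726, - strand, peaks in 5 of 6 MDA5-protected libraries: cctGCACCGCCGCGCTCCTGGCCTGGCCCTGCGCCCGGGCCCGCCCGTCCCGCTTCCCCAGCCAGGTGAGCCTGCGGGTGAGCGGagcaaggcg
Pcsk2os1, antisense gene, chr2:143545954-143546028, - strand, peaks in 5 of 6 MDA5-protected libraries: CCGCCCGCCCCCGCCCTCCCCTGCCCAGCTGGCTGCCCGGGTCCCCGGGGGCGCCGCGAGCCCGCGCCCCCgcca
9330160F10Rik, antisense gene, chr11:69059736-69059796, - strand, peaks in the 3 Mavs-/- MDA5-protected libraries: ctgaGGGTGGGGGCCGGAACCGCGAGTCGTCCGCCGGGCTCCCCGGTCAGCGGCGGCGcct
4930537H20Rik, antisense gene, chr3:90293258-90293329, - strand, peaks in the 3 Mavs-/- MDA5-protected libraries: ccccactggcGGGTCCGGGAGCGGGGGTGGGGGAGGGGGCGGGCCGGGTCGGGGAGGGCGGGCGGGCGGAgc
AI463229, lincRNA, chr13:37657673-37657852, - strand, peaks in 5 of 6 RNase-only libraries: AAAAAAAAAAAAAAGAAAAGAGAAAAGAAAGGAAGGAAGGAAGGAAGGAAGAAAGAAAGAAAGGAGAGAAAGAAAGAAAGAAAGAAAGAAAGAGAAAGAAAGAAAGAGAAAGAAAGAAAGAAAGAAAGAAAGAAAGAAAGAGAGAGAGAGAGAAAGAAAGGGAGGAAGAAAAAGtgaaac
Gm42918, antisense gene, chr5:121385384-121385572, + strand, peaks in 6 of 6 RNase-only libraries: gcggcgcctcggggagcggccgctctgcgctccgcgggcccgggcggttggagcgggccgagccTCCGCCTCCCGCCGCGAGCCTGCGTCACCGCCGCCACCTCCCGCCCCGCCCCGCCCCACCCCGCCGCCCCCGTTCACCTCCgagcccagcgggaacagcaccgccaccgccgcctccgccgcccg
Gm14236, antisense gene, chr2:168011126-168011196, + strand, peaks in 6 of 6 input libraries: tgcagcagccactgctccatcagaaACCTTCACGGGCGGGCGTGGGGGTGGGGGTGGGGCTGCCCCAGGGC
The 6 MDA5-protected stretches were 61 to 94 nt long and 79.8% to 89.3% G+C, with 5 to 12 CpG dinucleotides each. The *AI463229* stretch held a run of 174 purines with no pyrimidine between them and was 31.1% G+C. The *Gm14236* stretch was 71.8% G+C, above the input library medians given below. Folded alone with RNAfold, the *Gm42918* stretch had a predicted minimum free energy of -79.7 kcal/mol, the *C030014I23Rik* stretch of -29.5 kcal/mol, and the purine run of *AI463229* formed no predicted pair. Such energies fall with length and with G+C content, and the surrounding RNA was not included.

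The comparison of fractions asked which lncRNA stretches had peaks after RNase digestion, with and without MDA5. Input libraries were the control when the digested libraries' peaks were called. A missing peak there does not by itself show that an RNA was digested. The lncRNA genes were counted by the fractions that held their peaks. Input peaks lay in 53 lncRNA genes, RNase-only peaks in 71 and MDA5-protected peaks in 31. Of these, 13 genes had both input and RNase-only peaks, 4 had both input and MDA5-protected peaks, and 19 had both RNase-only and MDA5-protected peaks. The lncRNA genes with a peak in either fraction of these pairs numbered 111, 80 and 83. Over all annotated genes with an exonic peak, 5274 had one in input, 3544 in RNase-only and 598 in MDA5-protected. The genes with a peak in either fraction of the same pairs numbered 7244, 5613 and 3718. In 6 of the 13 genes shared by input and RNase-only the peaks themselves overlapped. Of the RNase-only genes 41 of 71 were seen in a single library, against 18 of 53 in input and 9 of 31 in the MDA5-protected fraction. Without the third Mavs-/- RNase-only library, described next, 23 of 52 RNase-only genes were seen in a single library. The counts of single libraries and of overlapping peaks were not set beside those of all annotated genes. They are therefore not read as a trait of lncRNA genes.

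The lncRNA-exon peaks were a small share of every library. They made up 0.483% to 0.793% of the input peaks, 0.328% to 1.14% of the RNase-only peaks and 0.550% to 1.36% of the MDA5-protected peaks (6 libraries each). The libraries held 4326 to 8948 input, 3150 to 6094 RNase-only and 1180 to 2868 MDA5-protected peaks in all, and with no read counts in the lists the sequencing depth is not known. Clopper-Pearson intervals for a share (95%, counting error only) ran, for example, from 0.777% to 2.19% in the library with the highest share. None of the 3 contrasts between fractions passed the test (adjusted p of 0.30 to 0.585 in a two-sided exact permutation test that kept the genotypes apart, with 6 libraries per fraction). The third Mavs-/- RNase-only library stood apart from the other 5, with 1.14% lncRNA-exon peaks against 0.328% to 0.549%, and with 428 peaks opposite a coding exon against 67 to 140. Of its 35 lncRNA genes, 19 had a peak in no other RNase-only library. Without that library the RNase-only share differed from input by -0.198 percentage points (adjusted exact permutation p = 0.045). The library was left out after its share had been seen, so this p cannot decide whether the fractions differ. The contrast also changed sign under other alternatives, which are given in the last section.

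**Figure D1:**
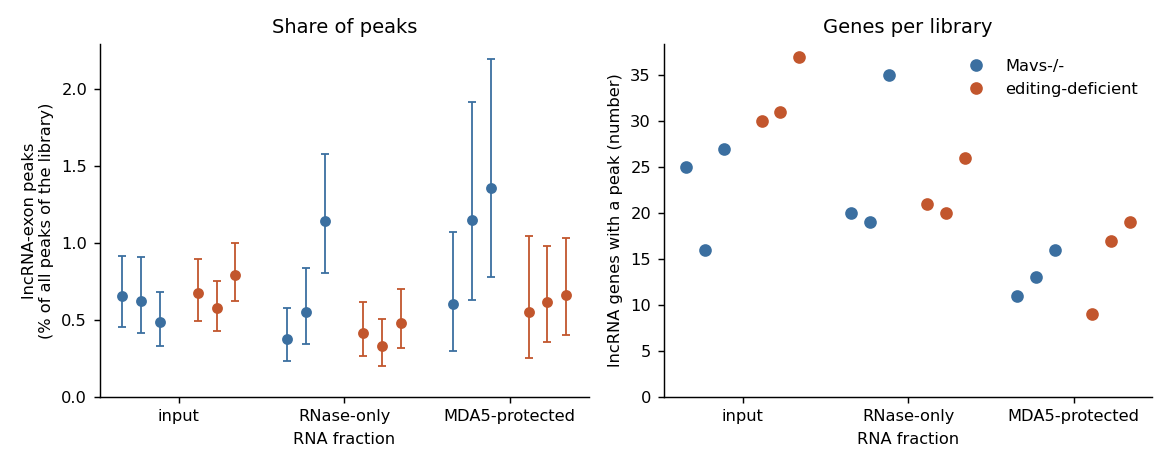
Left, the share of lncRNA-exon peaks among all peaks of a library (percent, with 95% Clopper-Pearson intervals); right, the number of lncRNA genes with a peak. Each point is 1 library, 3 per genotype and fraction. The third Mavs-/- RNase-only library reached 35 genes where the other RNase-only libraries had 19 to 26, and the MDA5-protected libraries had 9 to 19.

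Fewer lncRNA genes were found in the MDA5-protected lists, which were also the shortest. A library had 27.7 ± 7.03 genes in input, 23.5 ± 6.16 in RNase-only and 14.2 ± 3.82 in the MDA5-protected fraction (mean ± SD, n = 6). MDA5-protected differed from RNase-only by -9.33 genes and from input by -13.5 genes (adjusted exact permutation p = 0.015 for both). When the same number of peaks was taken from every library both differences turned around, to 2.33 and 3.50 genes, and neither passed (adjusted p of 0.555 and 0.405 by exact permutation).

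Peaks on lncRNA exons were shorter in RNase-only than in input and shortest in the MDA5-protected fraction. The median length of a library's lncRNA-exon peaks was 323.5 to 522 nt in input, 134 to 195.5 nt in RNase-only and 74 to 101 nt in the MDA5-protected fraction, with no overlap between fractions. The mean difference in medians was -234 nt between RNase-only and input and -73.5 nt between MDA5-protected and RNase-only, each at the smallest p this test allows (adjusted exact permutation p = 0.005). The coding-exon medians fell in the same order, with means of 314 nt in input, 221 nt in RNase-only and 160 nt in MDA5-protected. The fractions held partly different lncRNA genes, so sets of peaks were compared, not the same peak before and after digestion. Digested peaks were called against input and input peaks were not, and the part of this in the differences was not tested. The longest peaks were 3354, 2629 and 2514 nt in input, all on *Xist*, the RNA that coats the inactive X chromosome. In RNase-only they were 822 and 608 nt on *Gm15401* and 711 nt on *Hoxa11os*, and in the MDA5-protected fraction 664 and 592 nt on *Gm34667* and 257 nt on *Gm26621*.

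Against coding exons of the same library, the difference in length changed sign between fractions. Input lncRNA-exon peaks were longer than protein-coding-exon peaks by 80.3 ± 71.2 nt (mean of the differences between library medians ± SD, n = 6, adjusted exact sign-flip p = 0.03125). For RNase-only peaks the difference was -60.5 nt (SD 36.7 nt) and for MDA5-protected ones -72.3 nt (SD 23.2 nt), negative in 6 of 6 libraries each, with the same adjusted exact sign-flip p of 0.03125, the smallest that 6 libraries allow. In the MDA5-protected fraction the coding-exon medians were 125 to 192 nt. The input difference was carried by *Xist* in part, since without its 40 peaks it was 17.8 nt (adjusted exact sign-flip p = 0.156). The area under a peak's significance curve, ranked within its library, did not separate lncRNA from coding exons in any fraction (adjusted exact sign-flip p = 0.563 in each).

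**Figure D2:**
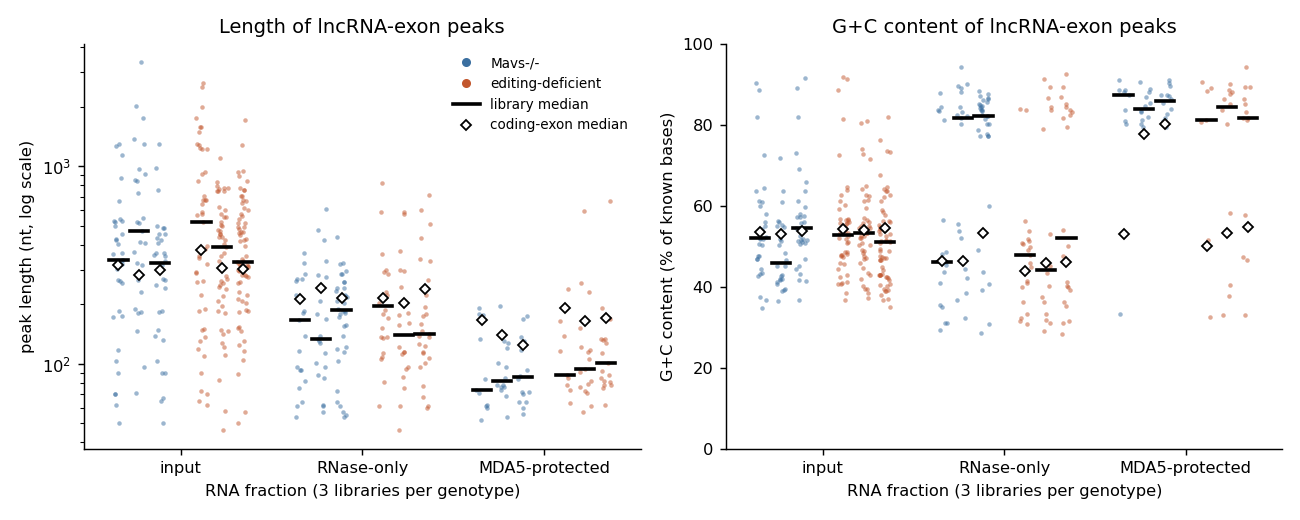
Left, the length of every lncRNA-exon peak (nt, log scale); right, its G+C content (percent of the bases known). Each column of points is 1 library, black bars are library medians and open diamonds the medians of the coding-exon peaks of that library. The MDA5-protected medians lie at 74 to 101 nt and 81.2% to 87.3% G+C.

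The MDA5-protected peaks were rich in G and C. The sequence was known for at least 50% of the bases in 252 of 261 input, 128 of 149 RNase-only and 67 of 86 MDA5-protected lncRNA-exon peaks. The median G+C content of a library was 45.97% to 54.5% in input and 81.2% to 87.3% in the MDA5-protected fraction. The MDA5-protected medians were 32.4 percentage points above input and 25.1 above RNase-only (adjusted exact permutation p = 0.0075 for both). With equal numbers of peaks the difference from RNase-only was 16.8 points and no longer passed (adjusted exact permutation p = 0.09). This measure was added after the sequences had been seen, and input peaks were not called against input as the digested ones were. The RNase-only libraries spread from 44.2% to 82.3%, with both values above 60% in Mavs-/- libraries, the second and the third.

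Within the MDA5-protected fraction the lncRNA-exon peaks were richer in G+C than the coding-exon peaks of the same library in 6 of 6 libraries, by 5.67 to 34.3 percentage points. The mean difference was 22.5 points with an exact sign-flip p of 0.03125, which became 0.0938 after adjustment over the 3 fractions. In input the difference was -2.26 points and in RNase-only 12.0 points (adjusted exact sign-flip p of 0.0938 and 0.125).

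Sorted by simple sequence classes, chosen after the sequences had been seen, 56 of the 67 MDA5-protected peaks with sequence were GC-rich (at least 70% G+C), against 60 of 128 RNase-only and 23 of 252 input peaks. Of all 150-nt windows along the longest transcripts of the annotated lncRNA genes, 1.22% were GC-rich. A run of at least 25 purines was found in 13 RNase-only, 2 MDA5-protected and 3 input peaks, and a run of at least 25 pyrimidines in 2, 3 and 9. Such purine runs made up 0.591% of the windows. The windows had a single length and came from transcripts only, while the peaks varied in length and drew part of their bases from promoters. Shares of windows and of peaks are therefore not like for like. GC-rich peaks were 3.85% to 12.5% of a library's input peaks with sequence, 9.52% to 78.8% of its RNase-only peaks and 66.7% to 100% of its MDA5-protected peaks. Among coding-exon peaks of the MDA5-protected libraries the GC-rich share was 20% to 59.9%.

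**Figure D3:**
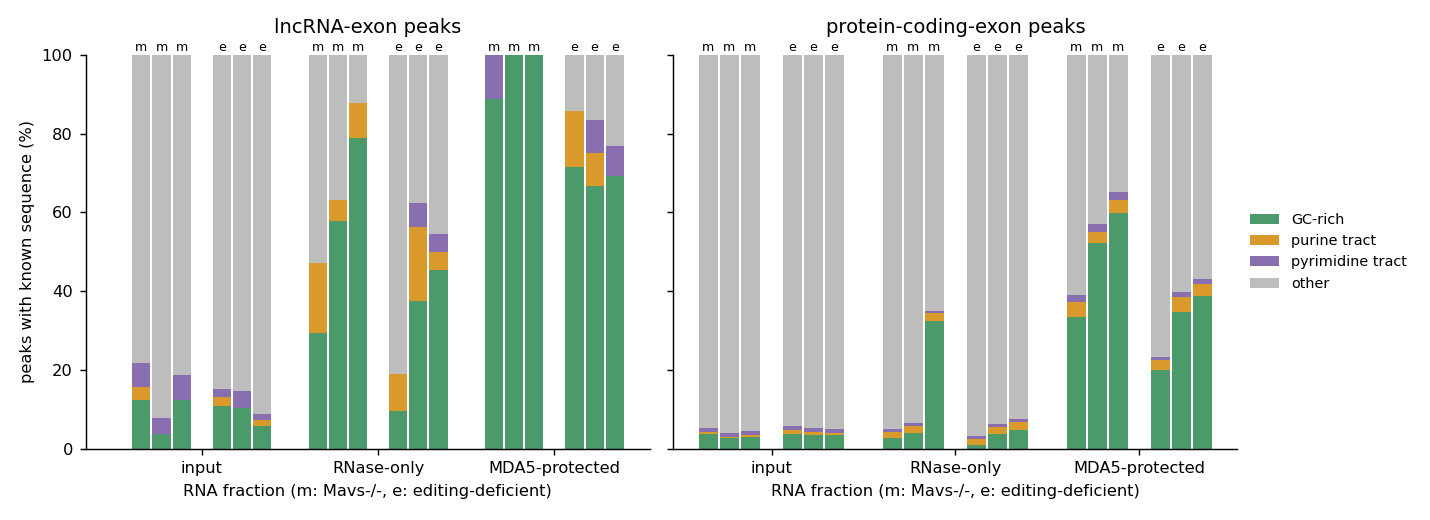
Share of peaks with known sequence (percent) in each sequence class, 1 bar per library, for lncRNA-exon peaks (left) and protein-coding-exon peaks (right). GC-rich peaks, in green, were 66.7% to 100% of the MDA5-protected lncRNA-exon peaks and 20% to 59.9% of the coding-exon peaks.

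Much of the MDA5-protected set lay beside coding promoters. Of the 86 MDA5-protected lncRNA-exon peaks, 47 had their middle within 500 bp of the start of a coding transcript, all 47 on the strand opposite to that gene, in 14 lncRNA genes. The rule excludes peaks on coding exons of the same strand, so this orientation was partly set by it. In input 33 of 261 and in RNase-only 40 of 149 peaks lay that near. Per library the share was 36.8% to 71.4% for lncRNA-exon and 33.0% to 68.8% for coding-exon peaks of the MDA5-protected fraction. Of the 56 GC-rich peaks, 42 lay within 500 bp of a coding start, and of the 11 other peaks with sequence none did. Promoter sequence was one of the sources of known bases, so the peaks with sequence favour such places.

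MDA5-protected lncRNA-exon peaks were shared with the RNase-only fraction less often than coding-exon peaks were. They overlapped an RNase-only peak of at least 2 replicates of their genotype in 27.3% to 44.4% of cases per library, against 45.2% to 75.9% of the coding-exon peaks. The lncRNA share was lower in 6 of 6 libraries, with a mean difference of -18.4 percentage points (SD 10.9, n = 6, exact sign-flip p = 0.03125). When at least 50% of a peak had to lie in exons, the difference was -17.1 points and no longer passed (exact sign-flip p = 0.0938). In counts, 17 of 45 editing-deficient and 15 of 41 Mavs-/- peaks were on such RNase-only peaks, and 23 and 19 touched no RNase-only peak of their genotype. For input peaks the share was 0% to 3.03% on lncRNA exons and 0.782% to 1.66% on coding exons, and the difference did not pass the test (-0.305 points, exact sign-flip p = 0.625). Shorter peaks have less room to overlap, and the part of length in the difference was not tested.

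**Figure D4:**
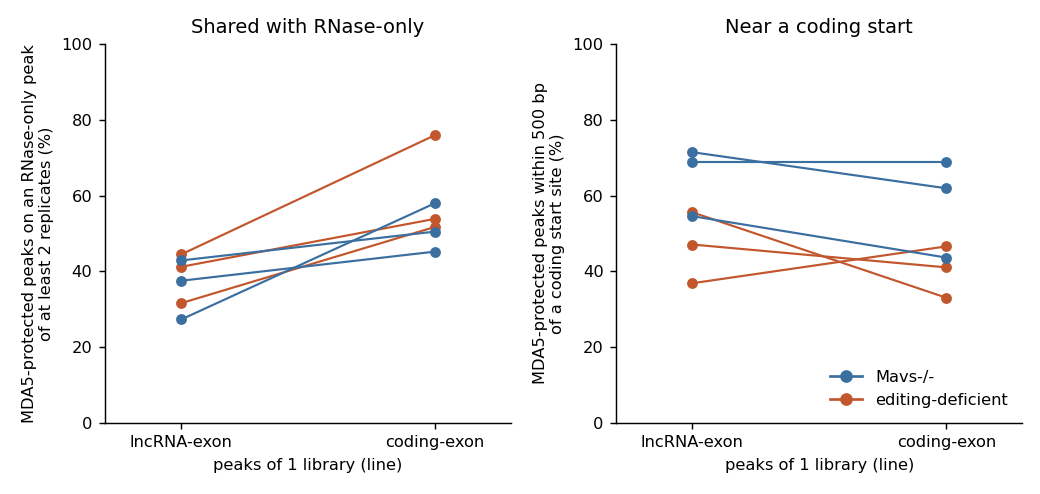
Left, the share of MDA5-protected peaks that overlapped an RNase-only peak of at least 2 replicates (percent); right, the share within 500 bp of a coding start site (percent). Each line joins the lncRNA-exon and coding-exon peaks of 1 library. The left share was lower for lncRNA exons in 6 of 6 libraries.

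A peak on the opposite strand in the same library overlapped 39 of 149 RNase-only lncRNA-exon peaks, beside 341 of 11262 coding-exon peaks. The shares per library were 14.3% to 44.4% on lncRNA and 1.14% to 17.2% on coding exons, the highest of both in the third Mavs-/- RNase-only library, which held 16 of the 39. In input such a peak overlapped 9 of 261 lncRNA-exon and 144 of 34394 coding-exon peaks, and in the MDA5-protected fraction 8 of 86 and 203 of 1480. These shares were not tested. Inverted repeats within the spliced transcript were looked for as aligned arms of at least 70 nt and 70% identity. The middle of 1 of the 496 peaks lay in such an arm, an RNase-only peak on *Zswim6*, annotated here as a processed_transcript gene, with an arm of 123 nt at 74.8% identity. Introns and neighbouring genes were not searched, and the same search was not made for coding exons.

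At the level of genes, 12 lncRNA genes had a peak in at least 5 of 6 input libraries and in no RNase-only library, of 111 with a peak in either. Over all annotated genes with an exonic peak this was 17.9%. Against the MDA5-protected fraction 15 of 80 lncRNA genes had this pattern, beside 31.5% of all genes. Because input was the control for the digested lists, the pattern depends in part on how peaks were called.

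The steadiest input peak was that of *Rmrp*, the RNA of the RNase MRP complex, at the 97.5th to 98.5th percentile of the area in the 6 libraries and 257 to 264 nt long. M21 lists the same place as a ribozyme gene too. *Snhg3*, the host of *Snora73a* and *Snora73b*, came next in mean percentile, with 85.4 to 92.4 in the 6 libraries. Its peaks overlapped these small nucleolar RNA genes, so host and small RNA cannot be told apart. *Gm14236* was held by a short peak of 46 to 71 nt at percentiles of 79.9 to 84.9, printed above. These genes had no peak in any of the 12 digested libraries.

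*BC024386* was held by a longer input peak. It reached 1293 to 1294 nt in the 3 Mavs-/- libraries and the first editing-deficient library, 797 nt in the second and 543 nt in the third, where its percentile fell outside the others, 55.1 against 90.8 to 96.8. It had 1 RNase-only peak, of 126 nt. *1810058I24Rik* stood at percentiles of 84.95 to 91.8 in Mavs-/- and 58.15 to 79.2 in editing-deficient input, and the ranges did not overlap.

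On chromosome 18, *AC121821.1*, whose peaks overlapped the small nucleolar RNA gene *Snora74a*, had percentiles of 78.9 to 82.8 in the 6 input libraries. *AC157910.3*, with 1 of its 20 input peaks overlapping *Mir122*, the abundant microRNA of hepatocytes, had 32.7 to 98.0, with 1 to 7 peaks per library. It was also 1 of the 4 genes with peaks in all 3 fractions, in 4 RNase-only libraries and 1 MDA5-protected library. The other genes with peaks in all 6 input libraries were *Gm10076*, *B930036N10Rik*, *Snhg20* and *C4a*, the last a near-identical copy of the coding gene *C4b*, so its reads may be divided between them. Peaks of *B930036N10Rik* and *Snhg20* overlapped small RNA genes on their strand.

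In the other direction, 6 lncRNA genes of 111 had a peak in at least 5 of 6 RNase-only libraries and in no input library, beside 4.57% of all genes. Against the MDA5-protected fraction 3 of 83 had, beside 8.90% of all genes. The 3 present in all 6 RNase-only libraries were *Mir99ahg*, *C030014I23Rik* and *Gm42918*.

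*Mir99ahg*, a host of microRNAs of the let-7 and miR-99 families, had a peak of 138 to 298 nt at percentiles of 39.4 to 97.5, with 29.5% to 48.7% of its bases in an annotated exon. The same place was MDA5-protected in the first and second editing-deficient libraries and in no Mavs-/- library. *Gm42918* starts beside *Trafd1* and its peak, mostly upstream of the annotated exon (7.29% to 27.0% of the bases inside), stood at 29.4 to 84.6. *AI463229*, with the purine run, stood at 68.6 to 90.9 in 5 libraries and was absent from the second Mavs-/- library. It was also MDA5-protected in the first editing-deficient library, at a percentile of 28.7.

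*Gm15401*, at percentiles of 63.7 to 97.0, and *Mettl5os*, at 49.4 to 92.0, had peaks in 5 RNase-only libraries and none elsewhere. The *Mettl5os* peaks with sequence were 28.6% to 29.0% G+C, and those of *Gm15401* 47.6% to 56.5%. The RNase-only genes thus held both AT-rich and GC-rich peaks.

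In the MDA5-protected fraction 5 lncRNA genes of 80 had a peak in at least 5 of 6 libraries and none in input, beside 1.19% of all genes. Against RNase-only 4 of 83 had, beside 0.403% of all genes (15 of 3718), and these 4 are among the 15. All 5 held GC-rich peaks where the sequence was known. *C030014I23Rik*, whose peak lay 3919 bp from the start of *Bcl9l*, was the one that RNase-only libraries also held. Its MDA5-protected percentiles were 39.9, 86.2 and 86.1 in Mavs-/- and 90.8, 88.8 and 90.5 in editing-deficient mice, and its RNase-only percentiles were 62.1, 90.0 and 84.1 and then 42.3, 90.2 and 89.55. The RNase-only peaks were 61 to 62 nt long and the MDA5-protected peaks 61 to 88 nt, over the same core.

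*Gm42984*, whose peaks lay 36 to 41 bp from the start of *Tapt1* on the opposite strand, had percentiles of 34.7, 40.3 and 57.5 in Mavs-/- and 59.8, 60.8 and 61.6 in editing-deficient mice. The 2 genotypes did not overlap, which is a description of ranks within lists of different lengths. *Gm12963*, opposite *Col16a1*, stood at 77.3 and 37.0 in 2 Mavs-/- libraries and at 79.5, 78.5 and 80.2 in the editing-deficient libraries. *Pcsk2os1*, opposite *Pcsk2*, stood at 33.0 and 48.6 and at 49.6, 62.1 and 50.5. Both were absent from the first Mavs-/- library.

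*Gm26852*, opposite the start of the DNA repair helicase gene *Ercc2*, had peaks of 60 to 132 nt at percentiles of 19.7 to 41.2 and was absent from the second editing-deficient library. Between 25% and 51.3% of the bases of these peaks lay inside the annotated exon. The corresponding range was 28.2% to 32% for *Pcsk2os1* and 68.1% to 76.5% for *Gm12963*, and *Gm42984* and *C030014I23Rik* lay inside their exons entirely.

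**Figure D5:**
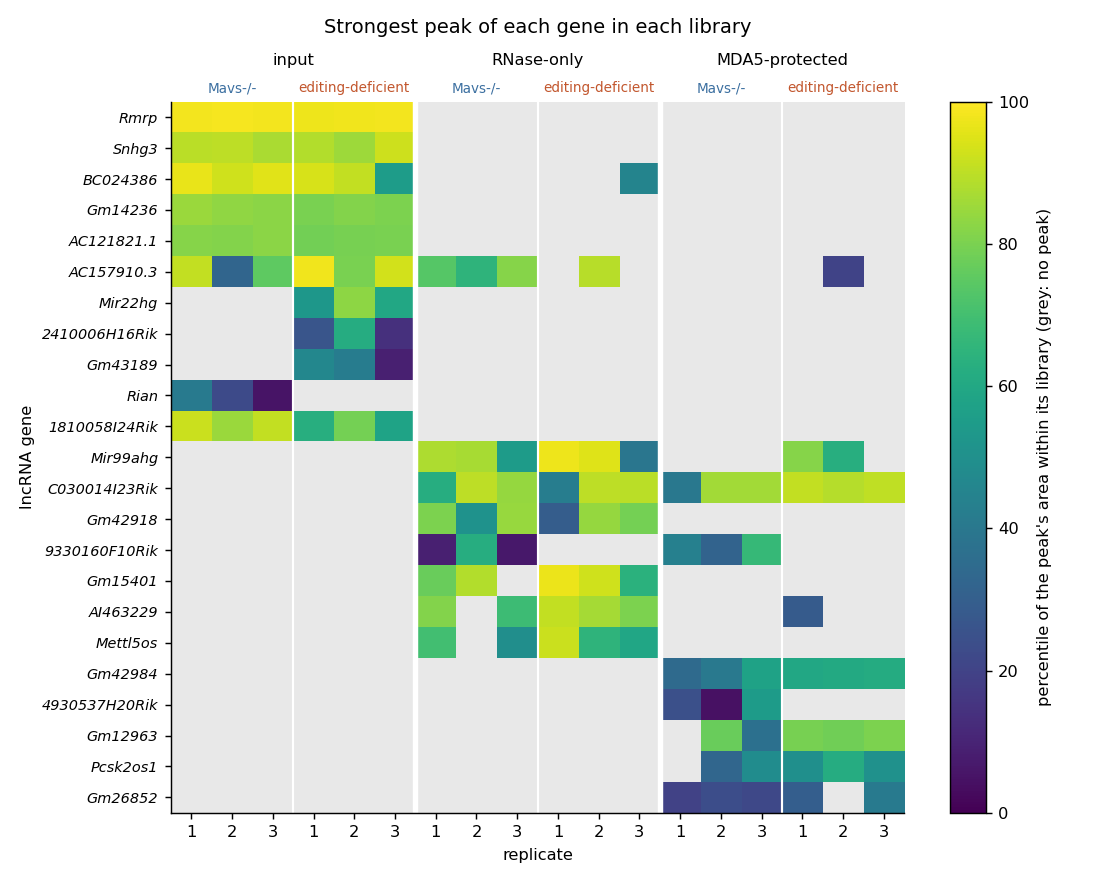
Percentile of the area of the strongest peak of each gene within its library (colour), for the genes named by the rule on presence, in the 18 libraries. Grey marks no peak. The upper 11 genes were chosen on input, the next 7 on RNase-only and the last 5 on MDA5-protected libraries.

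The comparison of genotypes asked whether lncRNA peaks differed where editing was lost. None of the 12 comparisons of a library measure passed its test, and 3 libraries against 3 cannot give a two-sided exact permutation p under 0.10. Input libraries had 30, 31 and 37 lncRNA genes in editing-deficient and 25, 16 and 27 in Mavs-/- mice, which did not overlap (exact permutation p = 0.10, adjusted p = 0.30). The same editing-deficient libraries held 6991 to 8948 peaks in all, against 4326 to 6625, and with equal numbers of peaks the difference of 10 genes was 0. The shares of lncRNA-exon peaks in input were 0.672%, 0.575% and 0.793% against 0.654%, 0.624% and 0.483% (adjusted exact permutation p = 0.40).

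MDA5-protected lncRNA-exon peaks had library medians of 88, 94 and 101 nt in editing-deficient and 74, 81.5 and 85.5 nt in Mavs-/- mice. The groups did not overlap and differed by 14 nt (exact permutation p = 0.10, adjusted p = 0.30). The coding-exon medians of the same libraries were also longer on average in editing-deficient mice. They were 192, 164 and 170 nt against 166.5, 140 and 125 nt, which overlapped. The median G+C content of the lncRNA-exon peaks was 81.2%, 84.4% and 81.7% against 87.3%, 84.0% and 86.0%, which overlapped (adjusted exact permutation p = 0.45). In RNase-only, the G+C medians were 47.8%, 44.2% and 52.0% against 46.04%, 81.7% and 82.3% (adjusted exact permutation p = 0.45).

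The peaks that were not GC-rich came mostly from the editing-deficient libraries. Of the MDA5-protected peaks with sequence, 8 of 9, 12 of 12 and 14 of 14 were GC-rich in the Mavs-/- libraries, and 5 of 7, 8 of 12 and 9 of 13 in the editing-deficient libraries. The 11 others lay in 7 genes (*AC133523.2*, *AC157910.3*, *AI463229*, *Brip1os*, *Gm15675*, *Gm26621* and *Gm28417*), and 10 of the 11 were editing-deficient. The exception was an *AC133523.2* peak, on a pyrimidine run, in the first Mavs-/- library. Among the coding-exon peaks of these libraries the GC-rich share was also lower on average in the editing-deficient group. It was 20%, 34.7% and 38.9% there against 33.3%, 52.4% and 59.9% in Mavs-/-, which overlapped. The split on lncRNA exons was seen after the classes were made, and neither split was tested.

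Few lncRNA genes separated the genotypes completely. With a peak in 3 of 3 editing-deficient and 0 of 3 Mavs-/- libraries there were 3 of 53 genes in input, 0 of 71 in RNase-only and 0 of 31 in the MDA5-protected fraction, beside 5.06%, 0.931% and 2.17% of all genes. In the other direction there were 1 of 53, 1 of 71 and 2 of 31, beside 0.834%, 0.367% and 1.84%. Counts of this size are too small to be set apart from those shares.

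The 3 input genes of the editing-deficient libraries were *Mir22hg*, the host of miR-22, *2410006H16Rik*, whose peaks overlapped *Snord49b*, and *Gm43189*. *Mir22hg* stood at percentiles of 52.8, 83.0 and 60.1, *2410006H16Rik* at 26.2, 61.8 and 13.7, and *Gm43189* at 46.4, 42.0 and 8.86. The Mavs-/- input gene was *Rian*, a maternally expressed imprinted RNA that hosts small nucleolar RNAs, at 40.9, 22.35 and 5.34. Its input peaks included overlap with a small nucleolar RNA gene. The lowest of these percentiles lie near the bottom of their lists, and the editing-deficient input lists were the longer ones.

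*9330160F10Rik*, opposite the start of *Borcs6*, was the gene that separated the genotypes in both digested fractions. Its MDA5-protected peaks stood at percentiles of 43.7, 31.7 and 66.95 in the 3 Mavs-/- libraries and its RNase-only peaks at 8.60, 62.2 and 6.35, with the core of 54 bases printed above shared by all 6. No editing-deficient library had a peak there. *4930537H20Rik*, opposite the start of *Gatad2b*, had MDA5-protected peaks at 24.5, 4.59 and 54.9 in Mavs-/- libraries and none in editing-deficient ones. It lies on chromosome 3, as *Adar* does and as the input gene *Gm43189* does, and strain sequence around the knockout was not examined.

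Most of the known lncRNAs looked up had no lncRNA-exon peak, and those with one were mostly seen in input alone. Of all 123 lncRNA genes with a peak, 40 were seen in input alone. Of 24 host genes of small RNAs looked up, 21 are in M21 by that name and 8 had a lncRNA-exon peak, all 8 in input and 1 of them, *Zfas1*, also in RNase-only. *Snhg3* and *Snhg20* had one in all 6 input libraries, *Snhg8* and *Mir22hg* in 3, and *Snhg12*, *Snhg17*, *Zfas1* and *Epb41l4aos* in 1. All of these but *Mir22hg* had input peaks that overlapped a small RNA gene on their strand. Host and small RNA cannot be told apart there. *Zfas1* was RNase-protected in 2 editing-deficient libraries.

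Of the X-inactivation genes *Xist*, *Tsix*, *Jpx* and *Ftx*, 2 had peaks and both in input only. *Xist* had 10 peaks in the second Mavs-/- library and 8, 6 and 16 in the editing-deficient libraries, 40 in all or 15.3% of the input members, and none in the other 2 Mavs-/- libraries. The sex of the animals is not given in the sources used here. *Ftx* had peaks in 2 input libraries. Of 9 imprinted or nuclear genes 3 had peaks, *Rian*, *Lncpint* (1 input library) and *Tug1*. Of 6 names looked up as cytoplasmic or abundant only 3 are in M21, so the others could have no peak. Among those in M21, 2 had peaks, *2900097C17Rik* in 5 input libraries and *Bc1* in 1 RNase-only library.

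*Tug1*, a spliced nuclear and cytoplasmic RNA that starts across from *Morc2a*, was the known lncRNA with peaks in all 3 fractions, in 4 input, 3 RNase-only and 3 MDA5-protected libraries. Its MDA5-protected peaks were 79.5% to 83.2% G+C, lay in the first exon and were found in the second and the third Mavs-/- and the third editing-deficient library. Its input peaks spanned 42.6% to 74.0% G+C.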

How the data were processed

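The authors sequenced 18 RNA libraries (3 per genotype and fraction), trimmed reads with Trim Galore 0.6.6 and called peaks per library with Genrich 0.6.1 on GRCm38, treating each strand as a chromosome of its own. The limits were an adjusted p of 0.01, an area of 500 and a gap of 20 bp, and input libraries were the control for the digested ones. rRNA entries and blacklisted regions were left out. The deposited signal of a peak is the area under its significance curve, which grows with depth, so areas were ranked within each list. Each deposited peak also carries −log10 p and −log10 of the adjusted p. No read counts were used here, so depth is unknown.

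Start positions were counted from 1. Members and lists were chosen with earlier results of these data known. An overlap of 1 bp counted. Bases came from M21 transcripts and RefSeq promoters (GRCm38.p6), which agreed at all 3304348 shared bases, because no genome was given. For that reason the planned repeat-masked share was not computed, and G+C content was added in its place. Library measures were compared by two-sided exact permutation tests (genotypes, or fractions within genotypes) and exact sign-flip tests (lncRNA against coding exons within a library), Benjamini-Hochberg adjusted over the 3 fractions or contrasts of a measure, with 0.05 as threshold. The study's methods call the replicates biological triplicates, and whether equal numbers in different fractions mark 1 animal is not stated. Counts of genes are given beside the same share of all annotated genes with an exonic peak.

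Genes were named by a rule: per fraction the 6 highest mean percentiles among genes in all 6 libraries, the 5 highest per contrast of 3 of 3 against 0 of 3 libraries between genotypes and of at least 5 of 6 against 0 of 6 between fractions, the members of 4 lists, and the 3 longest peaks per fraction. Other names were chosen after their values were seen. Alternatives changed the strand rule for coding exons, the overlap, the minimum area, the number of peaks, the left-out genes, small RNA and pseudogene overlaps, single replicates and the replicate block. Leaving out *Xist* or the third Mavs-/- RNase-only library alone was added after the data were seen. The steps were tested on simulated data. Python 3.11.15, numpy 2.4.6, pandas 2.3.3, scipy 1.17.1, matplotlib 3.10.9, BLAST 2.17.0 (word size 11) and ViennaRNA 2.7.2 were used.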

Additional observations from a re-analysis of the deposited data

How the results depend on the processing

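The fall in median length between fractions and the rise in G+C content from input to MDA5-protected kept their direction and their side of the threshold under every alternative that gave a value. Where single replicates were left out, 5 libraries cannot give a sign-flip p under 0.0625, so the length differences against coding exons no longer passed, at 59.3 to 92.5 nt in input, -68.9 to -50.8 nt in RNase-only and -78.8 to -65.9 nt in MDA5-protected, and likewise the overlap with RNase-only at -23.58 to -15.8 points. Other ranges with a replicate left out were -0.224 to 0.00997 points for the share (RNase-only minus input), 0.210 to 0.387 points (MDA5-protected minus RNase-only, adjusted exact permutation p of 0.025 without the third Mavs-/- replicate), -6.75 to -2.42 genes (RNase-only minus input), and, editing-deficient minus Mavs-/-, -16.8 to 83.6 nt in input, -21.9 to 8.5 nt in RNase-only, -0.848 to 3.40 points of G+C in input, -5.17 to 2.83 genes in RNase-only and -0.333 to 4.67 genes in MDA5-protected. The percentile difference of RNase-only peaks spanned -1.15 to 4.10. Without the third Mavs-/- RNase-only library alone, RNase-only differed from input by -0.198 points of share and -6.75 genes, both past the threshold. That library was left out after its values were seen, so neither call can decide a difference between fractions. The RNase-only genotype differences then turned to 2.83 genes and 8.5 nt, and the RNase-only length difference was -67.0 nt.

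With coding exons of either strand excluded, RNase-only genotype differences turned to 1.67 genes and 10.7 nt, and 3 results passed: -7.33 genes (RNase-only minus input) and G+C against coding exons of -2.83 points in input and 22.4 in MDA5-protected. With at least 50% of a peak in exons these 3 were -7.83 genes, -2.97 and 21.3 points, the overlap with RNase-only no longer passed at -17.1 points, the share (MDA5-protected minus input) turned to -0.00451, and genotype differences turned to 0.333 genes and 1.0 nt in RNase-only and -0.667 genes in MDA5-protected. With a minimum area of 1000, shares turned to -0.0877 (input genotypes) and -0.117 (MDA5-protected minus input), the percentile difference of RNase-only peaks to -15.0, -5.67 genes (RNase-only minus input) and -0.493 points of input overlap passed, and length differences of 83.7 nt in input and -139 nt in RNase-only did not. No value could be had for 10 results there, because a library had no lncRNA-exon peak left.

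With equal numbers of peaks, gene numbers turned to 2.0, 2.33 and 3.50 between fractions and -3.0 between MDA5-protected genotypes, the 10 genes between input genotypes became 0, RNase-only length to 13.0 nt and MDA5-protected G+C to 0.729 points between genotypes, and 16.8 points of G+C (MDA5-protected minus RNase-only) and 85.7 nt against coding exons in input no longer passed. Without small RNA and pseudogene overlaps, RNase-only minus input turned to 0.0222 points and 2.0 genes. Without *Xist* it turned to 0.0138 points, and the input length difference was 17.75 nt. Genes in at least 2 of 3 editing-deficient and no Mavs-/- library numbered 6 in input, 5 in RNase-only and 4 in MDA5-protected, beside 14.3%, 5.73% and 10.2% of all genes. Asking for 6 of 6 libraries left 3 and 1 RNase-only genes (against input and MDA5-protected) and 2 and 1 MDA5-protected genes (against input and RNase-only). Keeping the 8 left-out genes changed no call. The causes of these changes were not tested beyond what each alternative removes.

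Replicate numbers were not taken as a pairing, since correlations of same-numbered libraries over 7350 genes were -0.052 to 0.102, with 2 of 27 over 0.1 and 7 of 18 comparisons best with their own number. A fit with the replicate block changed no call, with -9.33 genes between MDA5-protected and RNase-only at an adjusted exact permutation p of 0.0469. The repeat-masked share was not run.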
